A study of Mus musculus with 6 samples.

Results

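Bicc1 and the proteins it is known to work beside were examined as a set of 7 genes: *Bicc1*, the adaptors *Anks3* and *Anks6*, the polycystins *Pkd1* and *Pkd2*, and *Invs* and *Nek8* of the inversin complex. The members were found as the rows of the deposited gene table that carry these symbols, 7 of 22063 genes. All 7 had enough reads to be tested, among 12862 genes that did.

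BICC1 is an RNA-binding protein that silences target messenger RNAs by recruiting the CCR4-NOT deadenylase complex, and it assembles into cytoplasmic bodies through a domain that also binds ANKS3 and ANKS6. The polycystins are membrane proteins of the primary cilium and other membranes, *Pkd1* coding for a large receptor-like protein and *Pkd2* for a cation channel with which it pairs. Inversin (*Invs*) and the kinase NEK8 lie with ANKS6 in a segment of the ciliary shaft, and mutations in most of these genes are known from kidneys with cysts and from defects of left-right asymmetry.

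RNA was sequenced from mouse cardiac fibroblasts on a C57BL/6J background whose *Tet3* alleles were floxed in both groups, *Tet3* coding for an enzyme that oxidises 5-methylcytosine in DNA. Cells in the control group (GFP, 3 libraries) had received an adenovirus coding for EGFP, and cells in the *Tet3* knockout group (CRE, 3 libraries) one coding for Cre recombinase beside EGFP. The CMV promoter of both vectors is not restricted to fibroblasts. TGF-β, which drives fibroblasts toward the myofibroblast state, was given to both groups, and no untreated cells were analysed here. The study calls its replicates biological and its cell experiments repeated, but does not say for these libraries whether each came from its own culture or mouse, so the p-values measure only the spread between these libraries.

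Total counts were 17002126 to 20343590 per library. *Tet3* itself was counted 1044, 965 and 1000 times in GFP replicates 1 to 3 and 642, 649 and 637 times in CRE replicates 1 to 3. The log2 fold change was −0.72 ± 0.08 (SE), so reads on the gene were reduced and not lost. A count over the whole gene cannot show how much intact transcript remained. In the test across all genes (edgeR quasi-likelihood, adjusted p under 0.05) 51.2% of tested genes differed between the groups, 25.5% higher and 25.7% lower in CRE. Markers of several cell types also differed. Of 10 fibroblast markers 9 were lower in CRE, and their summed level was 31223 to 32470 CPM (normalised read counts, scaled to the effective library size) in GFP and 18691 to 20115 CPM in CRE. Most of that sum was *Col1a1* (mean 13729 CPM in GFP and 8248 CPM in CRE) and *Col1a2* (11568 and 7392 CPM). *Vim* was at 81.9% of its GFP level, and *Thy1* was the marker that did not pass (log2 fold change −0.10). Of 8 endothelial markers 7 were lower, from a sum of 377 to 408 CPM in GFP to 185 to 214 CPM in CRE. Macrophage markers summed to 33.5 to 36.2 CPM in GFP and 20.7 to 24.6 CPM in CRE (2 of 5 tested lower, none higher), and smooth muscle and pericyte markers to 92.1 to 101 CPM and 69.9 to 80.5 CPM (5 of 8 lower, 1 higher). Epithelial markers summed to 1.49 to 2.48 CPM in GFP and 4.62 to 6.09 CPM in CRE, mostly *Krt18* and *Krt19*. *Krt18* was counted 5, 13 and 13 times in GFP and 32, 40 and 30 times in CRE. *Krt19* had 10, 15 and 9 counts in GFP and 25, 50 and 49 in CRE. Both had enough reads to be tested only through CRE, so their test results are not given. Means in GFP and CRE were 0.46 and 0.47 CPM for *Krt8* and 0.15 and 0.13 CPM for *Cdh1*. They were 0.14 and 0.27 CPM for *Cldn4* and 0.02 and 0.25 CPM for *Epcam*. *Cdh16* and *Umod* were at 0 in all libraries. Cardiomyocyte markers summed to 0.90 to 1.04 CPM in GFP and 1.27 to 1.66 CPM in CRE, with *Myh6* at 0. The part of these shifts in the results on *Bicc1* and its partners was not tested, and in bulk RNA fewer cells of a type cannot be told apart from less RNA per cell.

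Of the 7 genes, 2 were lower in CRE (*Bicc1* and *Pkd2*), 1 was higher (*Anks3*) and 4 did not pass the test (*Anks6*, *Pkd1*, *Invs* and *Nek8*). The groups did not overlap for 4 of the 7 (*Bicc1*, *Pkd2*, *Anks3* and *Invs*), as was the case for 59.6% of all tested genes. Neither count stands above its background. An exact permutation test of 3 against 3 libraries cannot give a p below 0.1.

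**Figure D1:**
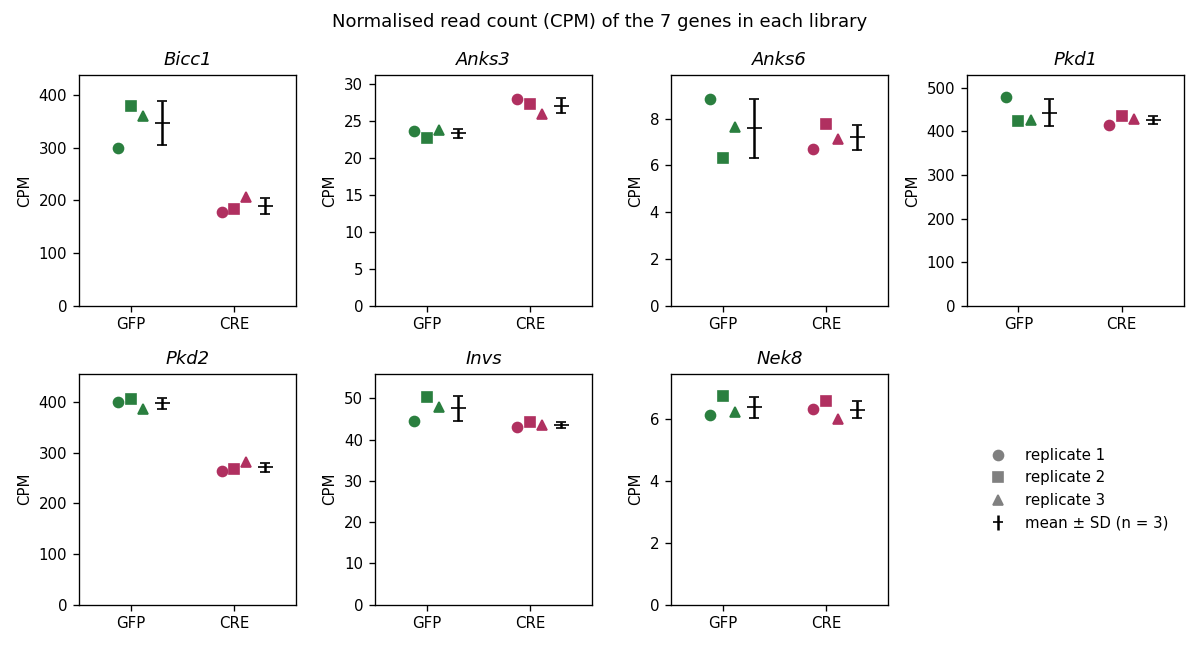
Normalised read count (CPM, vertical axes from 0) of each of the 7 genes in the 3 GFP and 3 CRE libraries, with marker shapes for replicates and bars for mean ± SD. *Bicc1* and *Pkd2* lie lower in all 3 CRE libraries, *Anks3* lies slightly higher, and *Anks6*, *Pkd1* and *Nek8* overlap.

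*Bicc1* (ENSMUSG00000014329) lies on the minus strand at chr10:70922832-71159700 (GRCm38). It was counted 4819, 6726 and 6934 times in GFP replicates 1, 2 and 3 and 3302, 3310 and 3921 times in CRE replicates 1, 2 and 3. After scaling these were 299.6, 379.1 and 360.3 CPM in GFP and 177.4, 183.3 and 207.0 CPM in CRE. Every CRE library was below every GFP library, and GFP replicate 1 was the lowest of its group. The mean fell from 346.3 ± 41.5 CPM (SD, n = 3) to 189.2 ± 15.7 CPM (n = 3), to 54.6% of the GFP level. The log2 fold change was −0.87 ± 0.09 (SE; 95% interval −1.07 to −0.68, edgeR adjusted p = 2.25e-05), and the exact permutation p was 0.1. A lower log2 fold change was found in 5.95% of all tested genes. The study singled out *Bicc1* partly on these libraries, so its direction here is not independent evidence. In the annotation 349 exonic bases of *Bicc1* (4.69%) are shared with an antisense gene, 4930533K18Rik, and whether reads were counted by strand is not stated.

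*Anks3* and *Anks6* code for ankyrin repeat proteins that bind BICC1 and each other through their SAM domains. *Anks3* (ENSMUSG00000022515, minus strand, chr16:4941436-4964205) had 380, 402 and 458 counts in GFP and 521, 493 and 491 in CRE, or 23.6, 22.7 and 23.8 CPM against 28.0, 27.3 and 25.9 CPM. All 3 CRE libraries were above all 3 GFP libraries, by a narrow margin. The mean rose from 23.4 ± 0.61 CPM to 27.1 ± 1.05 CPM (SD, n = 3 each), to 115.9% of the GFP level. The log2 fold change was 0.21 ± 0.06 (95% interval 0.07 to 0.35, edgeR adjusted p = 0.0176). This call is the least firm of the 3. The adjusted p was 0.0582 without GFP replicate 2, 0.0597 without CRE replicate 1 and 0.0752 in DESeq2, while the log2 fold change stayed at 0.19 or above. With scaling to library size alone it was 0.37.

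*Anks6* (ENSMUSG00000066191, minus strand, chr4:47015669-47057427), which activates NEK8, was far scarcer, with 142, 112 and 147 counts in GFP and 125, 140 and 135 in CRE. These were 8.83, 6.31 and 7.64 CPM in GFP and 6.72, 7.75 and 7.13 CPM in CRE. GFP replicates 1 and 2 enclosed all the other libraries, so the groups overlapped entirely. The log2 fold change of −0.07 ± 0.14 did not pass (edgeR adjusted p = 0.685), and its 95% interval of −0.38 to 0.23 leaves room for a change as large as that of *Anks3*.

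The polycystins had high counts and differed from each other. *Pkd2* (ENSMUSG00000034462, plus strand, chr5:104459450-104505819), the channel subunit, had 6423, 7202 and 7427 counts in GFP and 4901, 4845 and 5314 in CRE. That was 399.4, 406.0 and 385.9 CPM in GFP and 263.3, 268.3 and 280.6 CPM in CRE. The groups were widely separated and the libraries within each lay close together. The mean fell from 397.1 ± 10.2 CPM to 270.7 ± 8.88 CPM (SD, n = 3 each), to 68.2% of the GFP level, a log2 fold change of −0.55 ± 0.04 (95% interval −0.65 to −0.45, edgeR adjusted p = 5.73e-06). A lower log2 fold change was found in 12.2% of tested genes.

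*Pkd1* (ENSMUSG00000032855, plus strand, chr17:24549834-24596508), the receptor-like subunit, had 7690, 7514 and 8218 counts in GFP and 7723, 7849 and 8097 in CRE. After scaling these were 478.1, 423.6 and 427.0 CPM in GFP and 414.9, 434.7 and 427.5 CPM in CRE. GFP replicate 1 was the highest and the other 5 libraries were interleaved. The mean was 442.9 ± 30.6 CPM in GFP and 425.7 ± 10.003 CPM in CRE (SD, n = 3 each). The log2 fold change of −0.06 ± 0.05 did not pass (edgeR adjusted p = 0.403), with a 95% interval of −0.18 to 0.06 that does not reach the value of *Pkd2*. Of the exonic bases of *Pkd1*, 693 (3.98%) are shared with *Tsc2* on the opposite strand. *Tsc2* was counted 1454 to 1584 times in GFP and 1706 to 1814 times in CRE, and without a stated strand setting reads in the shared stretch cannot be assigned.

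*Invs* and *Nek8*, the inversin partners of *Anks6*, showed no difference that passed the test. *Invs* (ENSMUSG00000028344, plus strand, chr4:48279760-48431954) had 714, 892 and 923 counts in GFP and 799, 801 and 823 in CRE, or 44.4, 50.3 and 48.0 CPM against 42.9, 44.4 and 43.5 CPM. The groups met without overlapping, since GFP replicate 1 and CRE replicate 2 both lay near 44.4 CPM. The log2 fold change was −0.13 ± 0.06 (95% interval −0.26 to 0.003, edgeR adjusted p = 0.0943), and it passed in 1 of 16 other fits, the one without GFP replicate 1 (−0.17, adjusted p = 0.0238). A stretch of 226 exonic bases (1.98%) is shared with *Tex10* on the opposite strand, which had 846 to 909 counts in GFP and 991 to 1122 in CRE.

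*Nek8* (ENSMUSG00000017405, minus strand, chr11:78166106-78176675) codes for a kinase of the inversin complex. It had 99, 120 and 120 counts in GFP and 118, 119 and 114 in CRE, or 6.16, 6.76 and 6.23 CPM against 6.34, 6.59 and 6.02 CPM. The groups were interleaved, and the log2 fold change was −0.02 ± 0.12 (95% interval −0.27 to 0.24, edgeR adjusted p = 0.923).

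**Figure D2:**
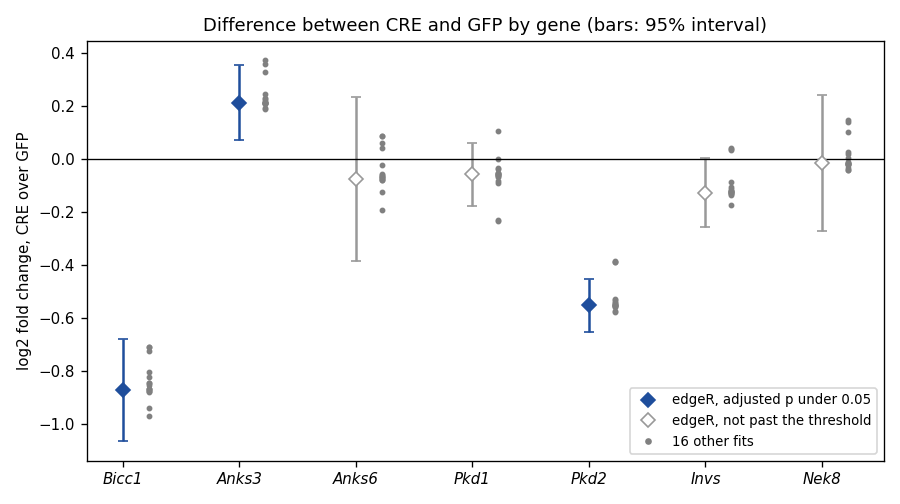
Log2 fold change of CRE over GFP for each of the 7 genes (diamonds, edgeR; bars, 95% interval), with the values of 16 other fits as grey points beside it. *Bicc1* and *Pkd2* lie below 0 in every fit, *Anks3* above 0 in every fit, and the points of *Anks6*, *Pkd1*, *Invs* and *Nek8* fall on both sides of 0.

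The sign of the 4 genes that did not pass depended on how libraries were scaled. With library size alone, the median log2 fold change of all tested genes moved from 0.01 to 0.17, since the scaling factors were 0.944 to 0.947 in GFP and 1.05 to 1.06 in CRE. On that scale *Anks6*, *Pkd1*, *Invs* and *Nek8* were at 0.09, 0.11, 0.04 and 0.15, all below that median. *Bicc1* was at −0.71 and *Pkd2* at −0.39 on the same scale, and both passed in 16 of 16 other fits.

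Ratios between 2 genes within a library do not depend on scaling. The log2 ratio of *Bicc1* to *Pkd2* counts was −0.41, −0.10 and −0.10 in GFP and −0.57, −0.55 and −0.44 in CRE. *Bicc1* thus fell further than *Pkd2*, by 0.32 ± 0.11 on the log2 scale (SE), but CRE replicate 3 and GFP replicate 1 were nearly equal. Against the other partners, *Bicc1* fell by 1.08 ± 0.15 relative to *Anks3*, by 0.85 ± 0.13 relative to *Nek8* and by 0.81 ± 0.17 relative to *Pkd1*. It also fell by 0.80 ± 0.25 relative to *Anks6* and by 0.74 ± 0.09 relative to *Invs*. In all 6 ratios the groups did not overlap, and the exact permutation p was 0.1, the smallest possible, before and after adjustment over the 6. All 6 hold the same *Bicc1* counts, so they largely repeat the fall of *Bicc1* and are not 6 separate results. The share of such ratios without overlap over all genes was not computed.

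The balance of the 2 polycystins shifted toward *Pkd1*. The log2 ratio of *Pkd1* to *Pkd2* counts was 0.26, 0.06 and 0.15 in GFP and 0.66, 0.70 and 0.61 in CRE, a difference of 0.50 ± 0.06 (SE; exact permutation p = 0.1), with no overlap. This depended on the measure. From the deposited FPKM (fragments per kilobase of transcript, scaled to depth) the same difference was 0.15 with overlapping groups, and that of *Bicc1* to *Pkd1* was −0.49 with no overlap. The FPKM of *Pkd1* did not follow its counts. The transcript length implied by both was 9.43, 8.02 and 11.3 kb in GFP and 11.9, 12.5 and 11.7 kb in CRE, whereas for *Pkd2* it was 5.22 kb in every library, the length of its longest annotated transcript. *Pkd1* has 10 annotated transcripts of 235 to 14164 bases.

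**Figure D3:**
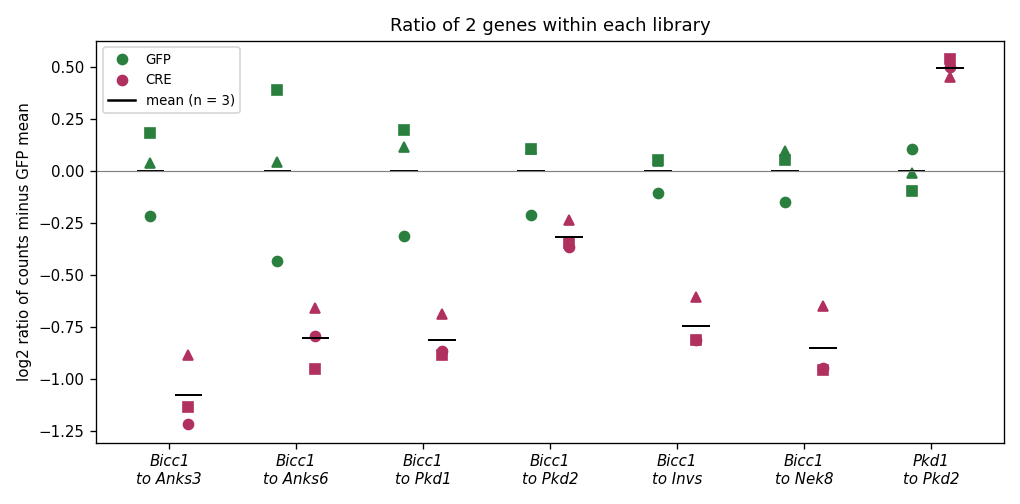
Log2 ratio of the counts of 2 genes within each library, minus the mean of the GFP libraries, for *Bicc1* against each partner and for *Pkd1* against *Pkd2*. The lines are means of 3 libraries. The 6 *Bicc1* ratios are lower in CRE and the polycystin ratio is higher, with the *Bicc1* to *Pkd2* groups closest together.

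Levels of different genes can be set side by side only per length. As FPKM, *Pkd2* had 72.2, 73.5 and 70.0 in GFP and 53.1, 54.6 and 56.9 in CRE. *Bicc1* had 60.6, 75.6 and 71.6 in GFP and 38.8, 40.6 and 46.3 in CRE, and *Pkd1* had 47.8, 49.9 and 35.7 in GFP and 36.6, 37.0 and 38.6 in CRE. All 3 were among the more abundant transcripts of these cells, since only 8.61%, 10.01% and 13.8% of tested genes had a higher mean FPKM than *Pkd2*, *Bicc1* and *Pkd1*. *Anks3* followed at 9.72 ± 0.35 FPKM in GFP and 12.5 ± 0.69 in CRE (SD, n = 3 each), above *Invs* with 7.44 to 8.54 in GFP and 8.10 to 8.39 in CRE. *Nek8* (2.07 to 2.28 in GFP, 2.27 to 2.49 in CRE) and *Anks6* (1.72 to 2.32 and 1.95 to 2.29) were lowest, with 77.6% and 78.8% of tested genes above them. The order was the same in both groups and was kept when counts per library total were divided by the longest annotated transcript. The level of *Pkd1* moved most, to 29.5 in GFP and 31.8 in CRE from mean FPKM of 44.5 and 37.4, so that its direction between the groups turned. Neighbours whose ranges overlapped were *Pkd2* and *Bicc1* in GFP only, and *Nek8* and *Anks6* in both groups.

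**Figure D4:**
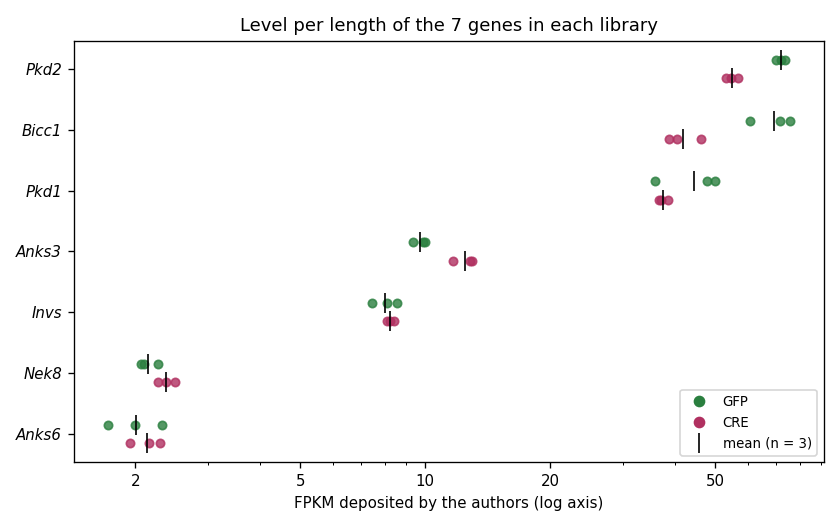
Deposited FPKM (log axis) of the 7 genes in each library, GFP above CRE within each gene, with ticks at the mean. *Pkd2*, *Bicc1* and *Pkd1* lie between 35.7 and 75.6, and *Nek8* and *Anks6* between 1.72 and 2.49.

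TET3 acts on methylated cytosine, which in mammals is found mostly in CG pairs, so the CG content around the gene starts is given as context. No methylation was measured here. RefSeq promoter sequences (GRCm38.p6; 250 bases before to 50 bases after the start) were at hand for 5 of the 7 genes, all but *Bicc1* and *Anks6*. The letters CG, which read the same on both strands, occurred 29 times in the window of *Anks3*, 25 times in those of *Invs* and *Nek8*, 18 times in that of *Pkd1* and 9 times in that of *Pkd2*. At least as many were found in 12.9%, 18.4%, 18.4%, 29.7% and 45.8% of all 32851 promoters, whose median was 7. The upstream sequences of the gene that rose and of the lower gene with a promoter are shown for their contrast, with CG in capitals. That of *Pkd2* is chr5:104459207-104459449 on the plus strand with 4 CG, and that of *Anks3* is chr16:4964238-4964487 on the minus strand with 22 CG, a window that also holds exonic sequence of the pseudogene 4930451G09Rik.
Pkd2 upstream: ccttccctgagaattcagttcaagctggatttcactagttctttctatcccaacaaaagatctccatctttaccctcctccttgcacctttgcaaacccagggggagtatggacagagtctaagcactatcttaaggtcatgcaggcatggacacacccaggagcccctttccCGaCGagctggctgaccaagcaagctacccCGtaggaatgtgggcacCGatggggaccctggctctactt
Anks3 upstream: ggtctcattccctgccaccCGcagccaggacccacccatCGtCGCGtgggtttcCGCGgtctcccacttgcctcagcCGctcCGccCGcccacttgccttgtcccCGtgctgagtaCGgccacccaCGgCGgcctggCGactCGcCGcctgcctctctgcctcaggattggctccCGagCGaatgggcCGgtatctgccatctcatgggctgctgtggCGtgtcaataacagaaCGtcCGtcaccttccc
*Anks3* carries its CG pairs along the whole window, and *Pkd2* carries its 4 in the part nearest the start.

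In the set of tested genes averaging 10 CPM or more, the profiles most like that of *Bicc1* over the 6 libraries were those of *Lgi2*, *Tbc1d2b*, *Sod2*, *Casp12* and *Thsd7a*. Their root-mean-square distances to *Bicc1* in centred log2 CPM were 0.032, 0.043, 0.050, 0.053 and 0.059, the smallest of 8807 genes. As in *Bicc1*, GFP replicate 1 was the lowest GFP library in each of them, which follows from their being chosen for likeness to that profile. *Pkd2* was the nearest partner at 0.194 and *Anks3* the farthest at 0.561, with *Invs* at 0.382, *Pkd1* at 0.441, *Nek8* at 0.444 and *Anks6* at 0.473. The 6 libraries share their group difference, so likeness is mostly likeness of that difference.

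Transcripts that BICC1 is known to regulate in other tissues were measured at very different levels. Of the 5 listed, 2 fell, none rose and 3 did not pass. *Adcy6*, an adenylyl cyclase, fell from 66.7 ± 4.53 CPM to 48.2 ± 1.64 CPM (log2 fold change −0.47 ± 0.06, edgeR adjusted p = 1.10e-04). *Pkia*, an inhibitor of protein kinase A, fell from 28.2 ± 0.87 CPM to 15.8 ± 1.41 CPM (−0.83 ± 0.08, adjusted p = 1.67e-05). *Dand5*, a Nodal antagonist, and the gluconeogenic genes *Fbp1* and *Pck1* were near or below 3 CPM, with log2 fold changes of −0.07 ± 0.26, −0.39 ± 0.27 and 0.51 ± 0.35. *Pck1* passed only without GFP replicate 2 (1.12, adjusted p = 0.00635). Both lower calls were kept in every fit run. Over all tested genes 25.7% were lower and 51.2% differed in either direction. The median of the 5, −0.39 against 0.01 over all tested genes, is the value of *Fbp1*, which did not pass.

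The CCR4-NOT subunits, the deadenylase through which BICC1 acts, gave calls in both directions, at about the shares of all tested genes (25.5% higher and 25.7% lower). Of 11 tested, 3 rose (*Cnot4*, 0.26, a ubiquitin ligase; *Cnot9*, 0.19; *Cnot8*, 0.17, a catalytic deadenylase) and 3 fell (the deadenylases *Cnot6l*, −0.26, and *Cnot6*, −0.19, and the scaffold *Cnot1*, −0.21). The other 5 did not pass, and the median was 0.06. Most of these calls turned on the fit. Without GFP replicate 3 none of the 11 was higher, with library size alone 6 were higher and none lower, and with limma on log2(FPKM + 1) 7 were higher and none lower. All tested genes moved the same way, with 5529 higher and 2083 lower in the former fit and 4904 higher and 1890 lower in the latter.

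Of the other ANKS genes, *Anks1* rose from 18.4 ± 1.55 CPM to 30.5 ± 1.85 CPM (0.72 ± 0.08, edgeR adjusted p = 4.66e-05), a larger change than that of *Anks3*. *Anks1b* was near 1 CPM (−0.20 ± 0.41, not past), and *Anks4b* was too low to test. Among known partners of the ANKS complex, *Hif1an*, the asparagine hydroxylase that modifies ankyrin repeats, rose (0.36 ± 0.06). *Nek7*, a kinase that binds ANKS3, was at 0.09 ± 0.04 and did not pass (adjusted p = 0.112). With library size alone *Nek7* passed (0.25).

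The polycystin paralogues were scarce. *Pkd2l2* was the only 1 of 6 tested, at 1.68 ± 0.11 CPM in GFP and 1.87 ± 0.07 CPM in CRE (0.16 ± 0.21, not past), and *Pkd1l1*, *Pkd1l2*, *Pkd1l3*, *Pkd2l1* and *Pkdrej* were at most 0.78 CPM in any library. Of 13 other genes of polycystic kidney and liver disease, 11 were tested, 2 rose, 3 fell and 6 did not pass, with a median of −0.10, where 25.5% of all tested genes were higher and 25.7% lower. With library size alone 5 were higher and 2 lower, and with limma on log2(FPKM + 1) 4 were higher and 2 lower. *Dzip1l* (0.54), a protein of the ciliary base, and *Ift140* (0.46), of the retrograde transport complex, were higher. The 3 that fell were *Ganab* (−0.41), a glucosidase subunit of the endoplasmic reticulum, *Sec61b* (−0.37), of its translocon, and *Alg8* (−0.30), a glucosyltransferase. Other genes of that compartment in the list did not pass, with *Prkcsh* at −0.11, *Sec63* at −0.10, *Dnajb11* at 0.00 and *Alg9* at 0.10. *Alg8* passed in 9 of 16 other fits and was lost without GFP replicate 1 or 3 and without CRE replicate 2 or 3 (adjusted p = 0.0719, 0.0912, 0.0727 and 0.114). *Pkhd1*, which codes for fibrocystin of kidney epithelium, was not tested, with at most 0.11 CPM in any library.

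Of 20 other nephronophthisis genes, many of which code for proteins of the cilium and its base, 19 were tested, 8 rose, 3 fell and 8 did not pass (median 0.06), against 25.5% higher and 25.7% lower over all tested genes. The higher count was 5 without GFP replicate 2, CRE replicate 2 or CRE replicate 3 and in DESeq2, and the lower count was 5 without GFP replicate 1 and 0 with limma on log2(FPKM + 1). The largest rises were in *Rpgrip1l* (0.78 ± 0.07), of the transition zone, *Mapkbp1* (0.64 ± 0.07) and *Xpnpep3* (0.46 ± 0.08). *Ift172* (−0.34 ± 0.07) and *Slc41a1* (−0.31 ± 0.05), a magnesium transporter, were among those that fell. Neither passed with limma on log2(FPKM + 1), nor did *Rpgrip1l* (0.45). Intraflagellar transport genes, the machinery that carries cargo along the cilium, gave 9 higher, 5 lower and 11 not past of 25 (median 0.02), where 25.5% of all tested genes were higher and 25.7% lower. *Ift46* (0.89 ± 0.05) and the kinesin subunit *Kif3b* (0.63 ± 0.06) rose most, with *Ift140* the third, while *Ift43* (−0.35 ± 0.13), *Ift172* and *Ift52* (−0.28 ± 0.07) were the lowest of those that passed. *Ift43* was the weakest of these, passing in 6 of 16 other fits and, of those that left out 1 library, only without GFP replicate 2. The lower count was 3 without GFP replicate 3, CRE replicate 1 or CRE replicate 3, and 1 with library size alone. With limma on log2(FPKM + 1), 10 of the 25 were higher and none was lower.

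**Figure D5:**
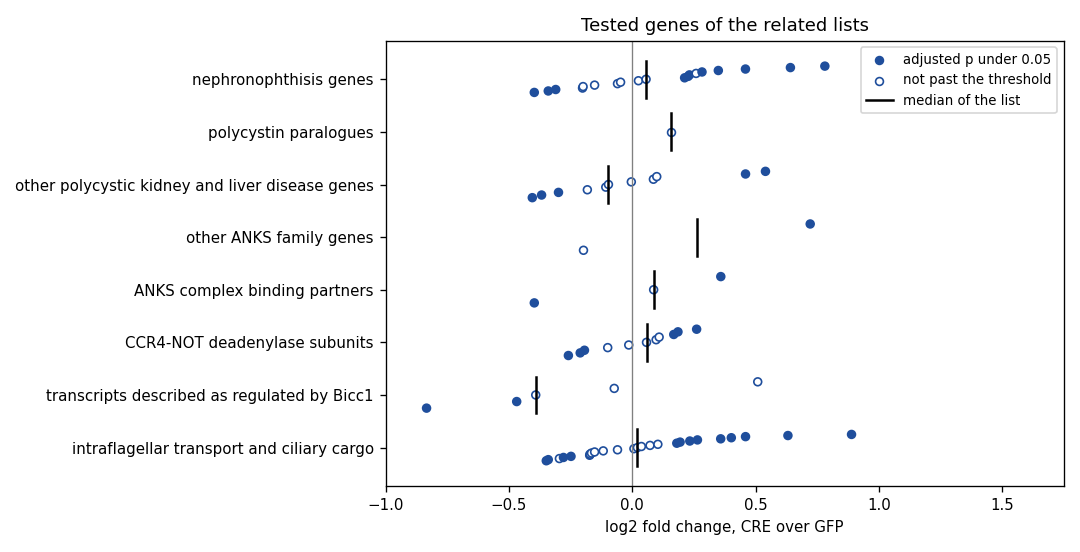
Log2 fold change of CRE over GFP (horizontal axis) for the tested genes of 8 related lists, 1 point per gene, filled where the edgeR adjusted p is under 0.05, with a bar at the median of each list. The nephronophthisis, CCR4-NOT and intraflagellar transport genes spread to both sides of 0, with medians of 0.06, 0.06 and 0.02.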

How the data were processed

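RNA-seq tables of 3 GFP and 3 CRE libraries were used, grouped by sample title. Per the methods of the study, reads were trimmed (Trimmomatic), aligned to GRCm38 (HISAT2) and counted per gene (HTSeq-count) by the authors. The authors deposited raw counts and, from Cufflinks, FPKM per library with group means. The deposited log2 fold change, p-value and false discovery rate columns hold the authors' own comparison and were not used. Tool versions and strand setting are not given in the sources used here, and labels and methods name different library kits.

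Counts were filtered by filterByExpr (minimum count 10, minimum total 15), scaled by TMM and tested two-sided with the edgeR 4.0.16 quasi-likelihood test (R 4.3.3), with Benjamini-Hochberg adjustment over 12862 genes. SE is the absolute log2 fold change over the square root of F. Alternatives used DESeq2 1.42.0 and limma 3.58.1. Coordinates came from GENCODE M21, and figures from matplotlib 3.10.9. All 7 members were named. From each related list, at most 3 higher and 3 lower called genes with the largest changes were named, and all tested genes of lists of at most 6, as were the 5 profiles nearest to *Bicc1*. Some results of these lists are not reported here. Genes too low to test, overlapping neighbours, the fibroblast, epithelial and cardiomyocyte markers and the genes of the endoplasmic reticulum that did not pass were named after their values were seen. The members and lists were chosen with earlier results of these data known. Intervals cover the spread between libraries only.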

Additional observations from a re-analysis of the deposited data

How the results depend on the processing

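Across 16 other fits, *Bicc1* stayed between −0.97 and −0.71 and *Pkd2* between −0.58 and −0.38 (log2 fold change), past the threshold in all 16, and *Anks3* between 0.19 and 0.37, past it in 13. Scaling to library size alone gave 5529 higher and 2083 lower genes, and 1890 and 1784 were lower with limma on log2(FPKM + 1) and log2(FPKM + 0.1). No member was called higher with DESeq2 or at an adjusted p under 0.01, and leaving out 1 library at a time gave 0 to 1. With library size alone the sign turned for *Anks6* (0.088), *Pkd1* (0.11), *Invs* (0.036), *Nek8* (0.15) and *Dand5* (0.089). On log2(FPKM + 1) it turned for *Anks6* (0.061), *Invs* (0.036), *Nek8* (0.10), *Anks1b* (0.012) and *Dand5* (0.076), and on log2(FPKM + 0.1) for the same genes (0.088, 0.040, 0.14, 0.052 and 0.14). *Nek8* was at 0.0028 with upper-quartile scaling. Leaving out 1 library moved *Anks6* between −0.19 and 0.040, *Nek8* between −0.043 and 0.025, *Anks1b* between −0.65 and 0.094 and *Dand5* between −0.32 and 0.19. None of these 6 genes passed in the edgeR fit. The scaling factors, estimated from the counts, differed between the groups, and the cause of these changes was not tested.

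With the replicate number as a replicate block, *Bicc1* was at −0.87 (edgeR adjusted p = 7.66e-06), *Pkd2* at −0.55 and *Anks3* at 0.21 (0.0278), and no call among the 7 changed. Same-numbered libraries correlated at 0.046, 0.18 and −0.02 in their deviations from the group means, and differently numbered ones at −0.12 to 0.071. With 3 libraries per group these values cannot decide whether the numbers mark pairs. The low counts of *Nek8* and *Anks6*, 99 to 147 per library, limit what could be seen to changes beyond their intervals.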
